A study of Capra hircus with 12 samples.

Results

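Involution is the regression of the mammary gland when milk is no longer removed. Its signalling, marker and cell death genes were read here through 6 genes, SOCS3, STAT3, CLU, IGFBP5, BCL2 and BAX, in goat glands infused with glucose. They were chosen by name from the 15810 genes listed for every library, all 6 were found, and all 6 passed the filter on low counts that left 13624 genes for testing. IGFBP5 is listed under the spelling IGFBP-5 and was matched by its gene identifier.

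The samples were 12 RNA-seq libraries of biopsied mammary tissue from lactating female goats, 4 for each of the low, middle and high dose of glucose infused. All groups were infused, so every comparison is between doses, and an uninfused gland was not analysed here. The sources used here give neither the amount of glucose behind each dose nor the age of the animals. The labels do not state whether replicates are different goats, and p-values thus measure only how far these samples vary among themselves, and that variation may be technical. A biopsy mixes cell types, and fewer cells of a type cannot be told apart from less RNA per cell.

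In mammary involution the cytokine LIF acts through the gp130 receptor and Janus kinases to activate the transcription factor STAT3, which drives epithelial cell death with lysosomal proteases. SOCS3 is a STAT3 target that binds gp130 and restrains the same pathway. IGFBP5 binds the survival factor IGF1 and keeps it from its receptor, and clusterin, the secreted chaperone encoded by CLU, is a marker of regressing glands. BAX opens the outer mitochondrial membrane to start the caspase cascade, and BCL2 holds it in check.

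By the coordinates in the tables, whose genome build is not named, SOCS3 lies on chromosome 19 from 52629015 to 52630392 and STAT3 on the same chromosome from 41567969 to 41641155. CLU lies on chromosome 8 from 10895163 to 10912583 and IGFBP5 on chromosome 2 from 104044705 to 104061987. BCL2 lies on chromosome 24 from 61057847 to 61257402 and BAX on chromosome 18 from 53965176 to 53968708. Each span is the whole gene body, and 0 other listed genes overlap any of the 6. A clusterin-like locus and CLUL1 held at most 8 and 3 reads in any library, against 1399 to 124949 for CLU.

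Total counts were 9555072 to 12716883 per library. Levels are given as CPM, read counts relative to a library size that the TMM method scales for composition, and were compared between libraries only, since transcript lengths were not used. Milk protein transcripts took 2.18 to 13.7% of counts at the low dose, 3.44 to 59.0% at the middle dose and 7.48 to 42.1% at the high dose. Middle-dose replicate 3 stood apart from its group, with 3.44% against 52.0 to 59.0% in replicates 1, 2 and 4, a share inside the low-dose range. A wrong dose label on this library and variation within the dose cannot be told apart from the files. Leaving it out takes the genes called by edgeR in middle against low from 0 to 2415, so results that rest on it are given with and without it. This omission was singled out by the library's own values. The p-values and calls without it therefore describe the remaining libraries and are not an independent test. None of the 10 luminal epithelial markers was at 0 in any library, and their summed level was 2207 to 4506 CPM.

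No member passed an adjusted p of 0.05 by edgeR in any of the 3 comparisons of doses, and neither did any of the 13624 genes tested (0% called in each comparison). An unadjusted p under 0.05 was found for 1 of 6 members in high against low (SOCS3; 11.5% of all genes), 2 of 6 in middle against low (CLU and BAX; 23.7% of all genes) and 2 of 6 in high against middle (SOCS3 and BCL2; 14.9% of all genes). Without middle-dose replicate 3, edgeR called CLU and BAX lower at the middle than at the low dose, where it called 8.85% of all genes lower and 8.87% higher. In the same fit BAX was called higher at the high than at the middle dose, as were 1.74% of all genes (2% were called lower).

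**Figure D1:**
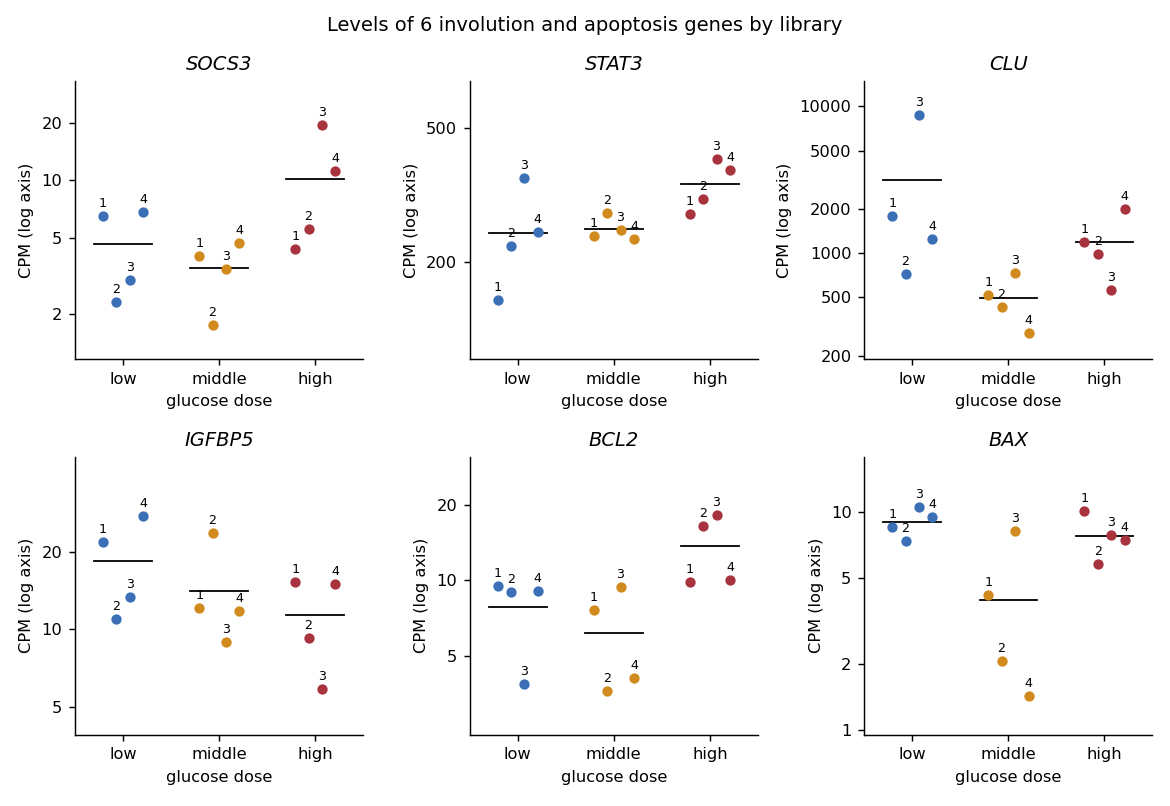
CPM on a log axis against glucose dose for the 6 genes, with 1 point per library numbered by replicate and bars for the means of 4 libraries. BAX is low in middle-dose replicates 1, 2 and 4 (1.43 to 4.17 CPM), CLU reaches 8749.6 CPM in low-dose replicate 3, and all 4 high-dose libraries lie above the other 8 for BCL2.

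SOCS3, the feedback inhibitor of gp130 signalling, was highest at the high dose. It stood at 6.47, 2.31, 3.01 and 6.83 CPM in low-dose replicates 1 to 4 and at 4.03, 1.73, 3.44 and 4.69 CPM in the middle-dose replicates. At the high dose it stood at 4.34, 5.54, 19.4 and 11.1 CPM. High-dose replicates 3 and 4 were above all other libraries, replicates 1 and 2 lay within the low-dose range, and the doses overlapped. Means were 4.65 ± 2.33 (SD, n = 4), 3.47 ± 1.27 and 10.1 ± 6.87 CPM at the low, middle and high dose.

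High against middle was a SOCS3 difference of 1.54 ± 0.53 on the log2 scale (SE), 2.91-fold (edgeR adjusted p = 0.257). High against low was 1.12 ± 0.51 (edgeR adjusted p = 0.433), and these differences were 1.01 and 0.59 without high-dose replicate 3. Middle against low was -0.43 ± 0.52 (edgeR adjusted p = 0.640). The depth behind SOCS3 was small, and its 10 reads in middle-dose replicate 2 allow 0.832 to 3.19 CPM (exact Poisson 95% interval, counting error only). The 7 neutrophil markers summed to 108 CPM in high-dose replicate 3, where SOCS3 was highest, and to 14.2 to 44.8 CPM in the other 11 libraries. Their part in the SOCS3 values was not tested.

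STAT3, the transcription factor that carries the signal, differed little between doses. It stood at 154, 224, 354 and 245 CPM in low-dose replicates 1 to 4, at 239, 279, 249 and 234 CPM at the middle dose and at 278, 307, 404 and 374 CPM at the high dose. High-dose replicates 2, 3 and 4 were above every middle-dose library, while low-dose replicate 3 lay inside the high-dose range. The middle-dose libraries were within 1.19-fold of each other. The STAT3 difference was 0.48 ± 0.23 on the log2 scale for high against low (edgeR adjusted p = 0.441) and 0.45 ± 0.23 for high against middle (edgeR adjusted p = 0.372). Middle against low was 0.03 ± 0.22 (edgeR adjusted p = 0.940).

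The SD of log2 CPM over the 12 libraries was 0.38 for STAT3, below the median of 0.42 over all genes tested, and 0.92 for SOCS3, a value that 87.9% of genes fell below. Reads of SOCS3 per read of STAT3, which no scaling touches, were 0.00851 to 0.0419 at the low dose. They were 0.00622 to 0.0200 at the middle dose and 0.0156 to 0.0480 at the high dose, so the 3 ranges overlapped.

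**Figure D2:**
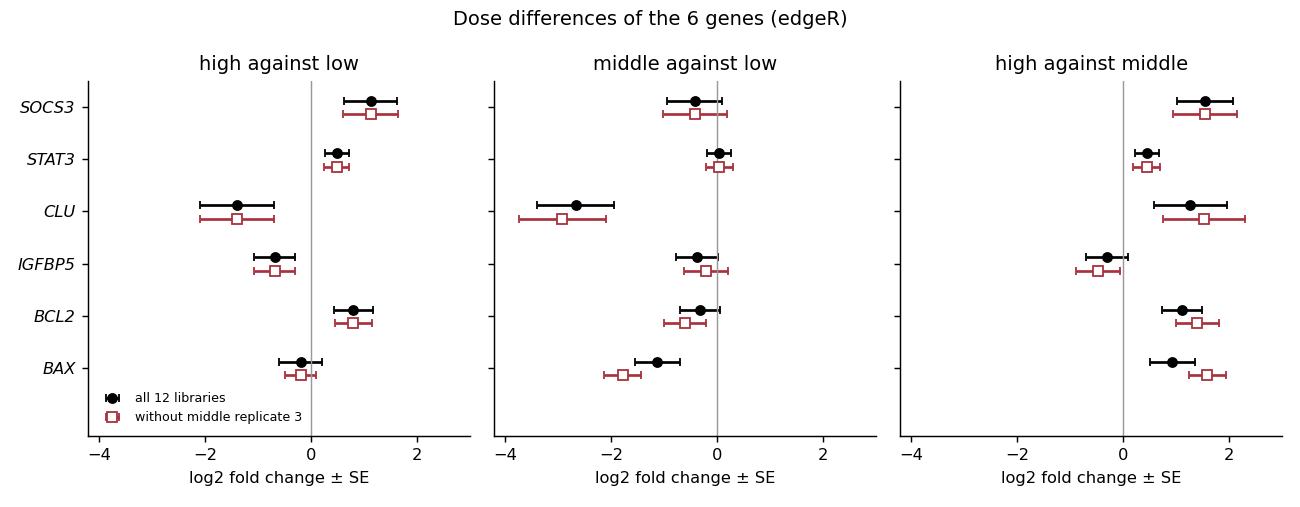
Log2 fold changes with standard errors from edgeR for the 6 genes in the 3 comparisons of doses, from all 12 libraries (black) and without middle-dose replicate 3 (red squares). The BAX estimate in middle against low moves from -1.13 to -1.78, and the CLU estimate from -2.67 to -2.92.

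Upstream of STAT3, 9 of 12 gp130 cytokine, receptor and Janus kinase genes passed the low count filter and 0 were called. Of these, 5 of 9 had higher estimates in high against low (47% of all genes; median log2 0.21, against -0.03 over all genes) and 4 of 9 in middle against low (47.4% of all genes; median -0.01, against -0.03). LIF, the cytokine that starts the first phase of involution, stood at 0.769 to 1.73 CPM at the low dose, 0 to 1.81 at the middle dose and 0.601 to 5.23 at the high dose. Its high-against-middle estimate was 1.96 ± 0.80 (edgeR adjusted p = 0.299), from few reads. JAK1, a kinase bound to gp130, stood at 661, 811, 285 and 781 CPM in middle-dose replicates 1 to 4 and at 256 to 448 CPM at the low dose. Middle-dose replicate 3 was inside the low-dose range and the other 3 above it. The JAK1 estimate in middle against low was 1.02 ± 0.33 (edgeR adjusted p = 0.105), and 1.26 ± 0.26 (adjusted p = 0.0121) without that replicate. IL6R, the interleukin-6 receptor, had 0.89 ± 0.40 for high against low (edgeR adjusted p = 0.433).

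Among 16 other SOCS and STAT genes and STAT3 partners tested, 0 were called and 4 had an unadjusted p under 0.05 in high against low (25.0%, against 11.5% of all genes). CISH, a SOCS family gene induced by STAT5, stood at 30.1, 87.8, 81.7 and 105 CPM in high-dose replicates 1 to 4 and at 23.4 to 31.8 CPM at the low dose. High-dose replicate 1 lay inside the low-dose range and the other 3 above it (1.54 ± 0.32, edgeR adjusted p = 0.386). SOCS6, which acts on receptor kinases, had 1.41 ± 0.39 in the same comparison (edgeR adjusted p = 0.386). Without middle-dose replicate 3, 2 of 16 passed downward in middle against low (8.85% of all genes), among them STAT4, which carries interleukin-12 signals.

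CLU, the involution marker, had the widest spread of the 6. It stood at 1788, 721, 8749.6 and 1254 CPM in low-dose replicates 1 to 4, at 521, 433, 729 and 285 CPM at the middle dose and at 1184, 992, 561 and 1999 CPM at the high dose. Low-dose replicate 3 was far above every other library. Middle-dose replicates 1, 2 and 4 were below every other library, with middle-dose replicate 3 just above low-dose replicate 2. From the lowest to the highest library CLU spanned 30.7-fold.

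CLU in middle against low was -2.67 ± 0.72 on the log2 scale, 6.35-fold lower (edgeR adjusted p = 0.0813). It was past the threshold by DESeq2 (adjusted p = 0.00198, with 4.38% of genes called lower), by limma voom with quality weights (adjusted p = 0.00570, with 17.5% called lower) and by edgeR without middle-dose replicate 3 (-2.92 ± 0.82, adjusted p = 0.0329). Without low-dose replicate 3 it was -1.35 ± 0.45 (edgeR adjusted p = 0.126). High against low was -1.40 ± 0.69 (edgeR adjusted p = 0.452) and -0.08 without low-dose replicate 3. High against middle was 1.27 ± 0.69 (edgeR adjusted p = 0.399).

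The CLU extremes fell in the libraries with the extremes of macrophage markers. The 8 listed macrophage markers, 0 of them at 0 in any library, summed to 292 to 718 CPM at the low dose, 219 to 392 at the middle dose and 353 to 511 at the high dose. The highest sum was in low-dose replicate 3 and the lowest in middle-dose replicate 4, as for CLU. All 8 had lower estimates at the middle than at the low dose, and without middle-dose replicate 3 C1QA, C1QB, C1QC and AIF1 passed downward by edgeR (8.85% of all genes). The 12 T and NK cell markers also summed highest in low-dose replicate 3, at 261 CPM against 65.4 to 170 in the other 11 libraries. The part of these cells in the CLU values was not tested.

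**Figure D3:**
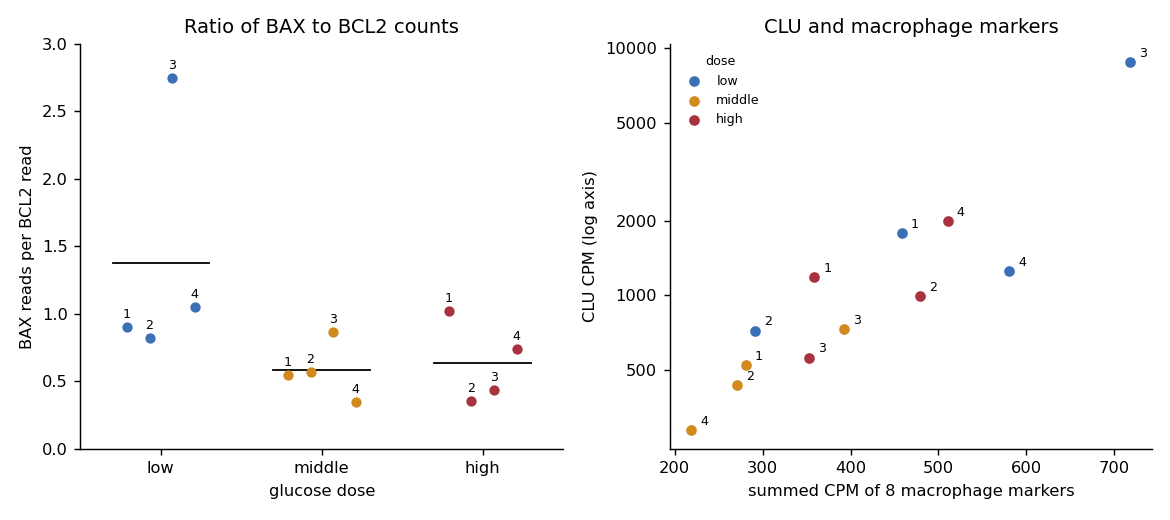
Left, BAX reads per BCL2 read by dose, with bars for the means of 4 libraries; right, CLU in CPM on a log axis against the summed CPM of 8 macrophage markers, 1 point per library numbered by replicate. Low-dose replicate 3 is highest in both panels, with a ratio of 2.75 and a marker sum of 718 CPM.

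IGFBP5, the second involution marker, showed no separation of doses. It stood at 21.7, 11.0, 13.3 and 27.4 CPM in low-dose replicates 1 to 4, at 12.1, 23.6, 8.92 and 11.8 CPM at the middle dose and at 15.2, 9.27, 5.86 and 14.9 CPM at the high dose. Each dose overlapped the others, with the highest value in low-dose replicate 4 and the lowest in high-dose replicate 3. Means were 18.3 ± 7.59 (SD, n = 4), 14.1 ± 6.48 and 11.3 ± 4.55 CPM at the low, middle and high dose. The IGFBP5 estimate was -0.69 ± 0.39 for high against low (edgeR adjusted p = 0.493). It was -0.39 ± 0.40 for middle against low (edgeR adjusted p = 0.566) and -0.31 ± 0.40 for high against middle (edgeR adjusted p = 0.727).

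The IGF axis around IGFBP5 gave 0 calls among 14 genes tested of 17 listed. In middle against low 5 of 14 estimates were higher, and 4 of 14 had an unadjusted p under 0.05 (28.6%, against 23.7% of all genes). IRS1, the adaptor that passes on the IGF1 receptor signal, stood at 159, 111, 57.3 and 172 CPM in middle-dose replicates 1 to 4 and at 43.3 to 59.5 CPM at the low dose. Middle-dose replicate 3 was again inside the low-dose range (1.20 ± 0.31, edgeR adjusted p = 0.0766), and without it the adjusted p was 0.00702. IGF2, a growth factor of the same receptor, had 0.47 ± 0.19 (edgeR adjusted p = 0.165). IGFBP3, a carrier of IGF1, had -1.13 ± 0.46 (edgeR adjusted p = 0.167), with its highest value in low-dose replicate 4.

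BCL2, the inhibitor of mitochondrial death, was highest at the high dose. It stood at 9.50, 9.02, 3.85 and 9.06 CPM in low-dose replicates 1 to 4, at 7.64, 3.64, 9.43 and 4.07 CPM at the middle dose and at 9.85, 16.5, 18.3 and 10.01 CPM at the high dose. All 4 high-dose libraries were above all 8 others, although high-dose replicates 1 and 4 cleared the highest low-dose and middle-dose libraries by little. Of all genes tested, 2.25% lay wholly above the low dose at the high dose in this way, and 3.33% wholly above the middle dose.

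BCL2 in high against middle was 1.11 ± 0.38 on the log2 scale, 2.16-fold (edgeR adjusted p = 0.256). High against low was 0.79 ± 0.37, 1.73-fold (edgeR adjusted p = 0.440), and middle against low was -0.32 ± 0.38 (edgeR adjusted p = 0.624). T and NK cell markers summed to 70.04 to 139 CPM at the high dose and 166 to 261 CPM at the low dose, with 10 of 11 tested markers lower, and their part in the BCL2 values was not tested.

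BAX, the pore-forming effector, was lowest in the middle-dose libraries rich in milk protein transcripts. It stood at 8.55, 7.41, 10.6 and 9.49 CPM in low-dose replicates 1 to 4, at 4.17, 2.08, 8.19 and 1.43 CPM at the middle dose and at 10.1, 5.80, 7.89 and 7.44 CPM at the high dose. Middle-dose replicates 1, 2 and 4 were below all other libraries, and middle-dose replicate 3 lay inside the ranges of both other doses. The low values rest on 30, 12 and 7 reads, against 45 to 179 in the other 9 libraries. The 7 reads allow 0.573 to 2.94 CPM (exact Poisson 95% interval, counting error only).

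BAX in middle against low was -1.13 ± 0.43 on the log2 scale, 2.19-fold lower (edgeR adjusted p = 0.143). Without middle-dose replicate 3, which was singled out by its values, it was -1.78 ± 0.35 (edgeR adjusted p = 0.0112). High against middle was 0.93 ± 0.43 (edgeR adjusted p = 0.337), and 1.58 ± 0.35 without that replicate (adjusted p = 0.0402). For middle against low, limma voom with quality weights gave -1.71 (adjusted p = 0.00466, 17.5% of genes called lower) and DESeq2 -1.12 (adjusted p = 0.0752). High against low was -0.20 ± 0.41 (edgeR adjusted p = 0.863).

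Reads of BAX per read of BCL2, which no scaling touches, were 0.900, 0.822, 2.75 and 1.05 in low-dose replicates 1 to 4. They were 0.545, 0.571, 0.868 and 0.350 at the middle dose, and 1.02, 0.352, 0.432 and 0.743 at the high dose. Low-dose replicate 3 stood above the rest, holding both the lowest BCL2 of its dose and the highest BAX of all 12 libraries. The low-dose range was overlapped by middle-dose replicate 3 and high-dose replicate 1, and the other 6 libraries of those doses were below it.

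The rest of the BCL2 family held both directions. Among 4 guardians tested, which block pore formation as BCL2 does, BCL2L2 stood at 102, 83.4, 60.4 and 154 CPM in middle-dose replicates 1 to 4 and at 37.5 to 65.7 CPM at the low dose (1.11 ± 0.32, edgeR adjusted p = 0.0862). BCL2A1, another guardian, had -1.10 ± 0.33 (edgeR adjusted p = 0.0940), with all 4 middle-dose libraries below the low dose (5.92% of all genes). Both passed in those directions without middle-dose replicate 3 (8.87% of all genes passed upward and 8.85% downward). BCL2L1, which encodes BCL-XL, had -0.34 ± 0.16 for high against low (edgeR adjusted p = 0.443).

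Among 13 effectors and BH3-only genes, the triggers of the pathway, 5 had higher and 8 lower estimates in middle against low, and 1 had an unadjusted p under 0.05 (7.69%, against 23.7% of all genes). That gene was BCL2L14 (-1.27 ± 0.40, edgeR adjusted p = 0.101). BAK1, the other pore-forming gene, stood at 18.3, 17.9, 39.4 and 17.5 CPM in middle-dose replicates 1 to 4 and at 24.5 to 42.9 CPM at the low dose. As for BAX, middle-dose replicate 3 was inside the low-dose range and the other 3 below it. The BAK1 estimate was -0.42 ± 0.31 (edgeR adjusted p = 0.415), and -0.81 ± 0.25 (adjusted p = 0.0482) without that replicate. BAK1 and BCL2L14 were the 2 of 13 that passed downward in that fit (8.85% of all genes). BNIP3L, a receptor for the removal of mitochondria, had -0.56 ± 0.21 in high against low (edgeR adjusted p = 0.388).

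**Figure D4:**
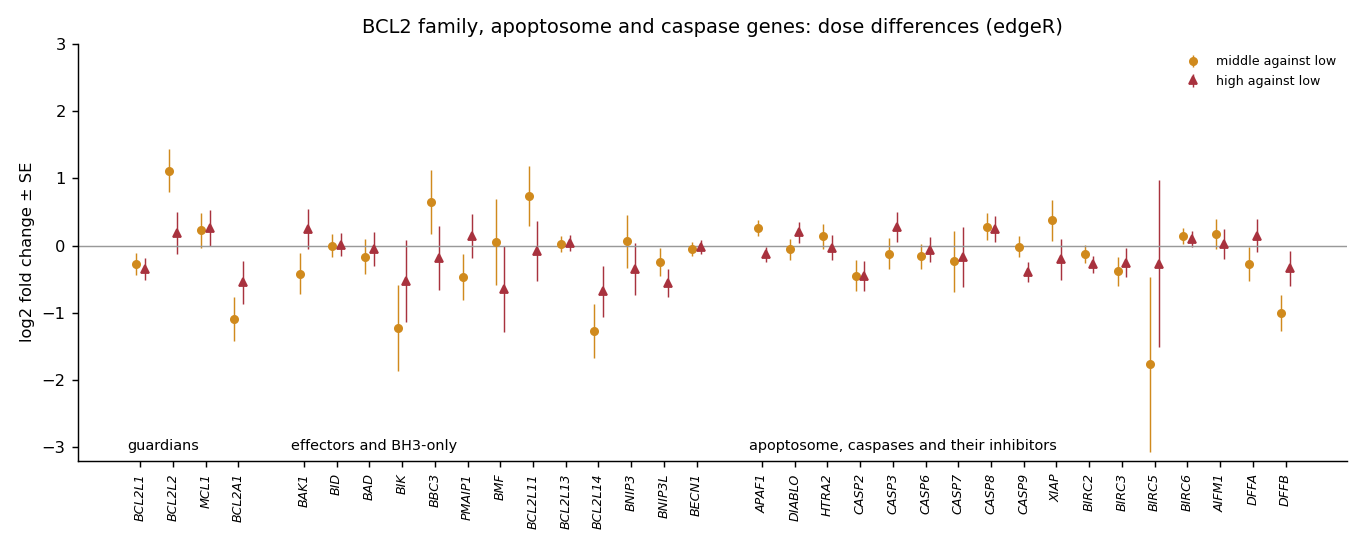
Log2 fold changes with standard errors for the tested genes of 3 lists, guardians, effectors and BH3-only genes, and the apoptosome with caspases and their inhibitors, for middle against low (circles) and high against low (triangles). BCL2L2 at 1.11 and BCL2A1 at -1.10 lie on opposite sides of 0 in middle against low.

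Downstream of BAX, 17 genes of the apoptosome, caspases and their inhibitors were tested and 0 called. In middle against low 2 of 17 had an unadjusted p under 0.05 (11.8%, against 23.7% of all genes). APAF1, the scaffold that activates caspase-9, stood at 99.5 to 108 CPM at the middle dose, 77.8 to 93.1 at the low dose and 66.3 to 87.1 at the high dose. The middle dose was above both others without overlap, as in 5.93% of all genes against the low dose and 2.61% against the high dose (0.26 ± 0.12 against low, edgeR adjusted p = 0.205). CASP9 had -0.40 ± 0.15 in high against low (edgeR adjusted p = 0.388). DFFB, the nuclease that cuts DNA in dying cells, had -1.001 ± 0.27 in middle against low (edgeR adjusted p = 0.0798). Without middle-dose replicate 3, DFFB and BIRC5 passed downward in that comparison (2 of 17, against 8.85% of all genes). The BIRC5 estimate was then -8.08 ± 1.66 (edgeR adjusted p = 0.0124). In high against middle it was 7.81 ± 1.67 in the same fit (edgeR adjusted p = 0.0359, with 1.74% of all genes called higher). The reads behind these BIRC5 estimates are not given here, so their size is not read as a measured fold.

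In the death receptor route 12 genes were tested and 0 called. TNFRSF12A, the receptor of the cytokine TWEAK, stood at 2.08, 1.04, 1.10 and 1.22 CPM in middle-dose replicates 1 to 4, at 1.96 to 10.4 CPM at the low dose and at 5.24 to 10.1 CPM at the high dose. The high dose lay above the middle dose without overlap, as in 3.33% of all genes (2.60 ± 0.49, edgeR adjusted p = 0.196). CFLAR, an inhibitor of caspase-8, stood at 135, 155, 62.0 and 141 CPM at the middle dose and at 48.2 to 83.6 CPM at the low dose (0.98 ± 0.31, edgeR adjusted p = 0.101). RIPK1, a kinase of the receptor complex, had 0.75 ± 0.21 in high against middle (edgeR adjusted p = 0.217). When middle-dose replicate 3 was left out, CFLAR and TNFRSF10B passed upward (8.87% of all genes) and TNFRSF12A downward (8.85%) in middle against low.

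Survival genes of PI3K and AKT had 9 of 13 higher estimates in middle against low (47.4% of all genes). FOXO3, a transcription factor that AKT holds inactive, stood at 209 to 293 CPM at the middle dose and 127 to 174 CPM at the low dose. The 2 doses did not overlap, as in 5.93% of all genes in this direction (0.77 ± 0.19, edgeR adjusted p = 0.0746). AKT1 had 0.66 ± 0.21 (edgeR adjusted p = 0.104) and its activator PDPK1 0.61 ± 0.20 (adjusted p = 0.109). When middle-dose replicate 3 was left out those 3 genes passed upward (8.87% of all genes), and PIK3R2 and PIK3R3 downward (8.85%). In a list of growth arrest and stress genes 7 of 11 estimates were higher. In the fit without that replicate GADD45B passed upward (8.87% of all genes) and 1 gene of the list downward (8.85%). The stress gene GADD45B had 1.21 ± 0.40 (edgeR adjusted p = 0.109) and GADD45A -2.03 ± 0.72 (adjusted p = 0.126) in middle against low, and GADD45G had 1.67 ± 0.59 in high against low (adjusted p = 0.386).

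The lysosomal genes of involution had mostly lower estimates at both the high and the middle dose than at the low dose. In high against low 12 of 13 genes tested were lower (median log2 -0.32, against -0.03 over all genes, of which 47% were higher). In middle against low 12 of 13 were lower too (median log2 -0.69, against -0.03 over all genes, of which 47.4% were higher). There 6 had an unadjusted p under 0.05 (46.2%, against 23.7% of all genes). CTSS, a cathepsin of macrophages, stood at 81.9 to 159.9 CPM at the middle dose and 154 to 281 CPM at the low dose (-1.03 ± 0.24, edgeR adjusted p = 0.0735). CTSZ had -0.98 ± 0.30 (edgeR adjusted p = 0.100) and the cathepsin inhibitor CST3 -0.69 ± 0.24 (adjusted p = 0.124). Without middle-dose replicate 3, 5 of 13 passed downward (8.85% of all genes), CTSB, CTSS, CTSZ, CST3 and GRN. Macrophage marker sums, given above, were also lower at the middle dose, and their part in these values was not tested.

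Matrix breakdown and plasmin genes had 15 of 16 lower estimates in middle against low (median log2 -0.64, against -0.03 over all genes), 7 of them at an unadjusted p under 0.05 (43.8%, against 23.7% of all genes). PLAT, which activates plasminogen, stood at 23.1 to 40.7 CPM at the middle dose, 42.1 to 94.2 at the low dose and 53.4 to 87.6 at the high dose. The middle dose lay below both others without overlap, as in 5.92% of all genes against the low dose and 3.33% against the high dose. High against middle was 1.16 ± 0.28 (edgeR adjusted p = 0.209). PLAUR, the urokinase receptor, had 1.03 ± 0.26 in high against middle (edgeR adjusted p = 0.209), and the gelatinase MMP2 -1.19 ± 0.40 in middle against low (adjusted p = 0.116). MMP19, PLAUR and PLAT, 3 of 16, passed downward in middle against low without middle-dose replicate 3 (8.85% of all genes). All 8 fibroblast markers had lower estimates in that comparison, with sums of 1889 to 7098 CPM at the middle and 3454 to 19809 CPM at the low dose, and their part in these values was not tested.

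Acute phase and clearance genes had 6 of 15 higher estimates in middle against low and 0 calls. With middle-dose replicate 3 left out, LRG1, LCN2, PIGR and MFGE8 passed upward (8.87% of all genes) and LRP2 and CHI3L1 downward (8.85%). MFGE8, a milk fat globule protein that also bridges phagocytes to dying cells, stood at 989, 2363, 512 and 1398 CPM in middle-dose replicates 1 to 4 and 106 to 309 CPM at the low dose. It did not overlap between these doses, as in 5.93% of all genes in this direction (2.56 ± 0.53, edgeR adjusted p = 0.0735). LRG1, an acute phase gene, had 3.29 ± 0.99 (edgeR adjusted p = 0.0942), with its highest value in middle-dose replicate 2. CHI3L1, a secreted glycoprotein, had -2.60 ± 0.58 (edgeR adjusted p = 0.0735), with 43.2 to 206 CPM at the middle and 282 to 878 CPM at the low dose. Of 9 TGF beta genes, 0 passed with or without that replicate and 8 had lower estimates in middle against low, among them TGFB3 (-1.64 ± 0.60, edgeR adjusted p = 0.136) and TGFB1 (-0.73 ± 0.21, adjusted p = 0.0899). TGFB2 had -0.92 ± 0.42 in high against low (edgeR adjusted p = 0.433).

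The 6 members were set against the milk protein share of each library, on log2 scales. BAX gave Pearson's r = -0.70 over the 12 libraries (permutation p = 0.00734, 0.0440 adjusted over the 6 members) and Spearman's rho = -0.64 (permutation p = 0.0298, adjusted 0.179). Of all genes tested, 9.67% had a lower r. Without low-dose replicates 1 and 2, the libraries farthest from the median share, r was -0.78 (permutation p = 0.00486, adjusted 0.0292). Within the 8 libraries of one table layout it was -0.76 (exact permutation p = 0.0133, adjusted 0.0799). The relation rested on the 4 libraries with a share of 42.1% or more: within the 8 libraries under 22% r was 0.28 (exact permutation p = 0.478). BAX was 7.41 to 10.6 CPM in those 8 and 1.43 to 5.80 CPM in the 4 others. Those 4 were high-dose replicate 2 and middle-dose replicates 1, 2 and 4. The permutations took no account of dose, so this relation and the lower BAX at the middle dose cannot be told apart. For the other 5 members r lay between -0.35 for BCL2 (permutation p = 0.270) and 0.32 for STAT3 (p = 0.308), with adjusted p of 0.528 or more.

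**Figure D5:**
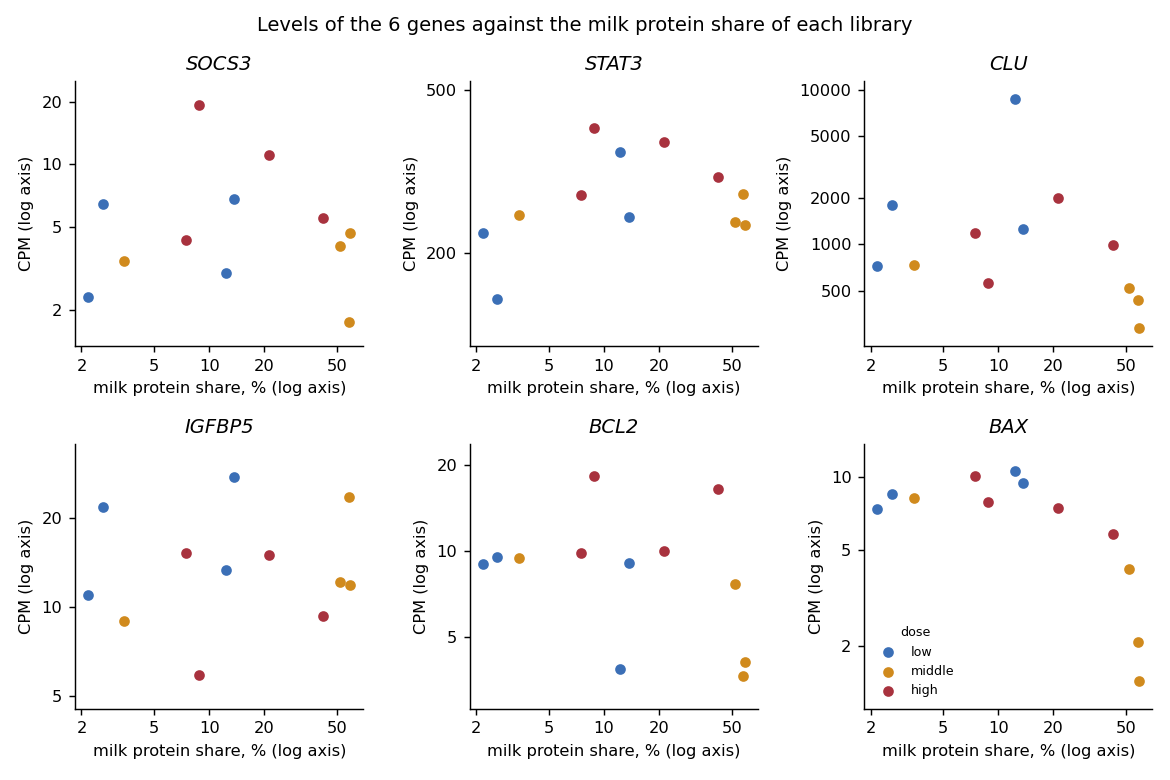
CPM of each gene against the milk protein share of counts in percent, both on log axes, 1 point per library coloured by dose. BAX is level from 2.18 to 21.3% and lower in the 4 libraries from 42.1 to 59.0%.

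Few pairs of members moved together over the 12 libraries. Of 15 pairs, CLU and BAX had the highest Pearson's r (0.70, permutation p = 0.0163, adjusted 0.133) and Spearman's rho (0.80, permutation p = 0.00304, adjusted 0.0456). That r was 0.64 without the libraries farthest from the median of CLU, 0.80 within the 8 libraries of one layout and 0.43 on deviations from the dose means. SOCS3 and BCL2 had r = 0.67 (permutation p = 0.0177, adjusted 0.133) and rho = 0.75 (permutation p = 0.00709, adjusted 0.0532), and r was 0.34 without high-dose replicate 3 and middle-dose replicate 2. SOCS3 and STAT3 had r = 0.36 (permutation p = 0.248, adjusted 0.620), and BCL2 and BAX r = 0.53 (permutation p = 0.0741, adjusted 0.370).

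The genes most like each member were ranked by Pearson's r of log2 CPM over the 12 libraries, among 11693 genes that carry a symbol and average a log2 CPM of 1 or more. For CLU they included BTK, a kinase of B and myeloid cells (0.95), and CCR2, a chemokine receptor of monocytes (0.94). For BAX they included CMTM3 (0.95) and ACAT2 (0.94), with Spearman's rho of 0.90 and 0.69. SOCS3 was nearest to BMPR2 (0.93), PEAK1 (0.87) and the glucose transporter gene SLC2A3 (0.86), and STAT3 to CSNK1G2 (0.92), ACTN1 (0.89) and RAB5C (0.89). IGFBP5 was nearest to LHFP (0.92), C10H15orf52 (0.91) and HTATIP2 (0.90), and BCL2 to TUT1 (0.93), PGM2 (0.92) and FAM162A (0.91). These points share the composition of 12 libraries, and no p was computed.

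The tables came in 2 layouts, 1 for 8 libraries and 1 for 4, and no label mentions the split. Within the 8 libraries high against low was 1.31 for SOCS3, 0.81 for STAT3, -0.65 for CLU, -1.37 for IGFBP5, 0.95 for BCL2 and -0.27 for BAX on the log2 scale, each with the sign found over all 12. Middle against low was -1.34 for CLU and -1.01 for BAX there. High against middle was 1.93 for SOCS3 and 1.57 for BCL2, against 52.8% of all genes with a higher estimate over all 12 libraries. None of these values for members passed by edgeR within the 8 libraries. The layout of 4 held 1 library each of the low and the middle dose, too few for values of its own. Its low-dose library was replicate 3, so the 8 libraries also leave out that replicate. The extreme CLU and BCL2 values of low-dose replicate 3 thus cannot be told apart from the layout.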

How the data were processed

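The authors deposited 1 table of raw read counts per gene for each of 12 libraries, per the file headers. Bowtie 0.12.2 and the mouse build mm8 appear in the submitters' processing notes, although the tables list goat genes. The sources used here do not give the counter, the goat build or the use of strand, so a gene and an antisense partner cannot be told apart. The 15810 genes common to both table layouts (16030 and 15991 genes) were joined, and 97.3% of identifiers matched ARS1.2, used for names and chromosomes only. The members and lists were chosen with earlier results of these data known.

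Low-count genes were removed with filterByExpr of edgeR 4.0.16 (minimum count 10, minimum total 15), leaving 13624. These were tested with the edgeR quasi-likelihood F test after TMM scaling, with dose as the only factor over all 12 libraries and Benjamini-Hochberg adjustment over all genes to 0.05. The SE is the log2 change divided by the square root of F. Log2 CPM used a prior count of 2. Permutation tests were two-sided, with 100000 resamples for 10 or more libraries and exact below. The code was checked on simulated counts with known changes.

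Named were the 6 members, the 3 tested genes of each of 13 pathway lists with the smallest p for any difference among doses, and the 3 genes most like each member. Some genes that this rule names are not reported here. Other list genes are named where they passed without middle-dose replicate 3, after their values were seen. Cell type markers were summed. The alternatives were DESeq2 1.42.0 (size factors, and its test), limma 3.58.1 voom with quality weights, scaling by library size only, keeping low-count genes, dropping milk protein genes, fitting only the groups compared, a replicate block, table layout, and omission of each library. Restriction to milk protein shares under 22% was chosen after seeing the data. Versions were R 4.3.3, Python 3.11.15 and scipy 1.17.1. Sequences of the 6 genes were not analysed here.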

Additional observations from a re-analysis of the deposited data

Results flagged for a closer look

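In 30 groups of 4 libraries checked, 4 held a library far from the other 3 by Dixon's test, where chance flags about 1 group in 20, and 3 of the 4 are low-dose replicate 3. CLU was 8749.6 CPM there, against 721 to 1788 CPM in the other low-dose libraries. BCL2 was 3.85 CPM there, against 9.02 to 9.50 CPM. The ratio of BAX to BCL2 reads was 2.75 there, against 0.822 to 1.05, a value that follows in part from the BCL2 level. The milk protein share of middle-dose replicate 3 was 3.44%, against 52.0 to 59.0% in the other middle-dose libraries.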

How the results depend on the processing

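Over 22 alternatives the 18 estimates of members between doses gave 396 values, of which 384 kept direction and side of the threshold, 6 passed it newly and 6 turned sign. By edgeR 0 genes were called in each comparison, and by DESeq2 57 in high against low, 1410 in middle against low and 272 in high against middle, by limma voom 4701 and 334 in the latter pair. Within the 8 libraries of one layout 8 were called in high against low and 1 for any difference. With 1 library left out the calls ranged from 0 to 19, 0 to 2415, 0 to 510 and, for any difference, 0 to 1292. The highest were without high-dose replicate 1 (19) and middle-dose replicate 3 (2415, 510 and 1292), and without low-dose replicate 2 there were 16 in middle against low. Library size alone moved the median of all genes to -0.32, -0.86 and 0.56 (high against low, middle against low, high against middle). STAT3 in middle against low was then -0.79 and IGFBP5 in high against middle 0.44, or 0.07 and -0.13 relative to that median. With 1 library left out these estimates ran from -0.13 to 0.27 and from -0.48 to 0.059. The relation to milk protein share turned for STAT3 (r = -0.60) and IGFBP5 (-0.55) by library size alone, and BCL2 passed (-0.70, adjusted permutation p = 0.0372). Under that scaling most genes tested had a negative r. A lower r than that of STAT3, IGFBP5 and BCL2 was found for 78.9, 82.6 and 69.1% of all genes. These 3 values thus do not set the members apart from genes in general. The relation also turned for STAT3 (-0.22) without the libraries farthest from the median. Under 22% it turned for SOCS3 (0.49), CLU (0.42) and BAX (0.28). The causes were not tested.

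Same-numbered libraries did not deviate together (r of deviations from -0.53 to 0.38), so the numbers are not taken as pairs. With a replicate block 0 genes were called, and CLU in middle against low was -2.22 ± 0.71 (edgeR adjusted p = 0.155), and it changed no call of a member. Depth limits BAX and SOCS3, with as few as 7 and 10 reads, and LIF, at 0 CPM in 1 library.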

Other observations

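Estimates for markers of other cells were also read in middle against low, a comparison in which the BAX estimate was lower. All 6 endothelial markers tested had higher estimates at the middle than at the low dose (median log2 0.74, against -0.03 over all genes), with sums of 1065, 1032, 625 and 1301 CPM in middle-dose replicates 1 to 4 and 598 to 799 CPM at the low dose. PECAM1, CDH5, KDR and TEK passed upward by edgeR without middle-dose replicate 3 (8.87% of all genes). Of 10 luminal markers KRT7, KRT8 and KRT18 passed downward in the same fit (8.85% of all genes), while ELF5, a regulator of secretory alveolar cells, passed upward. The luminal median was -0.59, yet luminal markers summed to 2478 to 4506 CPM at the middle dose and 2207 to 3142 CPM at the low dose. Of 9 myoepithelial markers KRT5, KRT14 and TP63 passed downward and OXTR was lower. The others, KRT17, ACTA2, MYLK, MYH11 and CNN1, had higher estimates (median of the 9 0.11). The markers of either cell type thus did not move together. Adipocyte markers summed to 34.7 to 81.0 CPM over the 12 libraries, and B and plasma cell markers to 115 to 836 CPM. Markers of skeletal muscle summed to at most 4.27 CPM, and those of red blood cells to 269 CPM in low-dose replicate 1 and at most 11.9 CPM elsewhere.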
